A study of Mustela putorius furo with 20 samples.

Results

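Thyroid hormone reaches the developing brain in steps. The genes described here are known to act in the control or handling of this hormone or in the response to it. Their RNA was followed in the outer subventricular zone (oSVZ) of the ferret cortex. The 8 genes are *TRHDE*, *SLCO1C1*, *DIO2*, *DIO3*, *THRA*, *THRB*, *CRYM* and *KLF9*. They were listed by symbol. The list was chosen from earlier results of the same libraries, in which *TRHDE* stood out for its difference between gyral and sulcal oSVZ at P5, so the P5 gyral and sulcal levels are given below as a description with no test. Of the 8 symbols 6 belonged to an identifier among the 32,057 of the count table (17,208 with a symbol). *DIO2* and *DIO3* matched no symbol and were not analysed here. Of the 6 genes 5 had enough reads to test among 12,669 tested genes, and *KLF9* had too few.

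The hypothalamic peptide thyrotropin-releasing hormone (TRH) drives the pituitary and through it the thyroid, which secretes mainly the prohormone T4 and less of the active hormone T3. Both enter brain cells through membrane transporters. Deiodinases then convert T4 to T3 or inactivate both, and T3 acts through the nuclear receptors encoded by *THRA* and *THRB*, which bind DNA together with retinoid X receptors and recruit corepressors in the absence of hormone and coactivators in its presence. In rodents and humans this hormone is required in the perinatal cortex for neuronal migration, for the differentiation of oligodendrocytes and for myelination.

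The oSVZ, a germinal layer that is expanded in folded brains and rich in basal radial glia, was captured by laser below the coronal gyrus (CG) and below the suprasylvian sulcus (SSS) of ferret kits. There were 5 kits aged 5 days (P5), when folding begins, and 5 kits aged 15 days (P15), in mid-folding, and each kit gave 1 CG and 1 SSS library, which made 20 libraries in 4 groups of 5. The labels name no treatment or genotype for any group, the animal is the replicate, and each library pooled 50 sections of 1 region of the left hemisphere. CG was compared with SSS within animals at each age, which asks whether gyral and sulcal germinal zones differ, and P15 was compared with P5 within each region, between animals.

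Between 2,488,477 and 4,277,326 reads per library were assigned to genes. The P15 SSS library of animal 4 stood apart, with no read in 1371 tested genes against 49 to 825 in the other 19 libraries. Of the markers of radial glia, the cells that define this zone, the 9 with an identifier (of 12 listed) had reads in every group. Their summed levels were 6847 to 11,485 CPM (counts relative to the scaled library total) per library. By group means *FABP7* and *PTPRZ1* supplied most of these sums. *FAM107A* was near the floor at P5, with 19 reads in 2 CG libraries and 12 reads in the SSS. Its means were 1.18 and 0.853 CPM there, against 50.8 and 82.3 CPM at P15. Other cell classes moved with age. Summed astrocyte markers were 4.79-fold higher at P15 in the CG and 5.11-fold in the SSS, those of the oligodendrocyte lineage 6.47-fold and 5.64-fold, those of microglia 3.86-fold and 3.42-fold, and those of vessel endothelium 1.88-fold and 1.75-fold, while excitatory neuron markers stood at 0.126 and 0.134 of their P5 level. In bulk RNA of this kind, fewer cells of a type and less RNA per cell cannot be told apart.

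**Figure D1:**
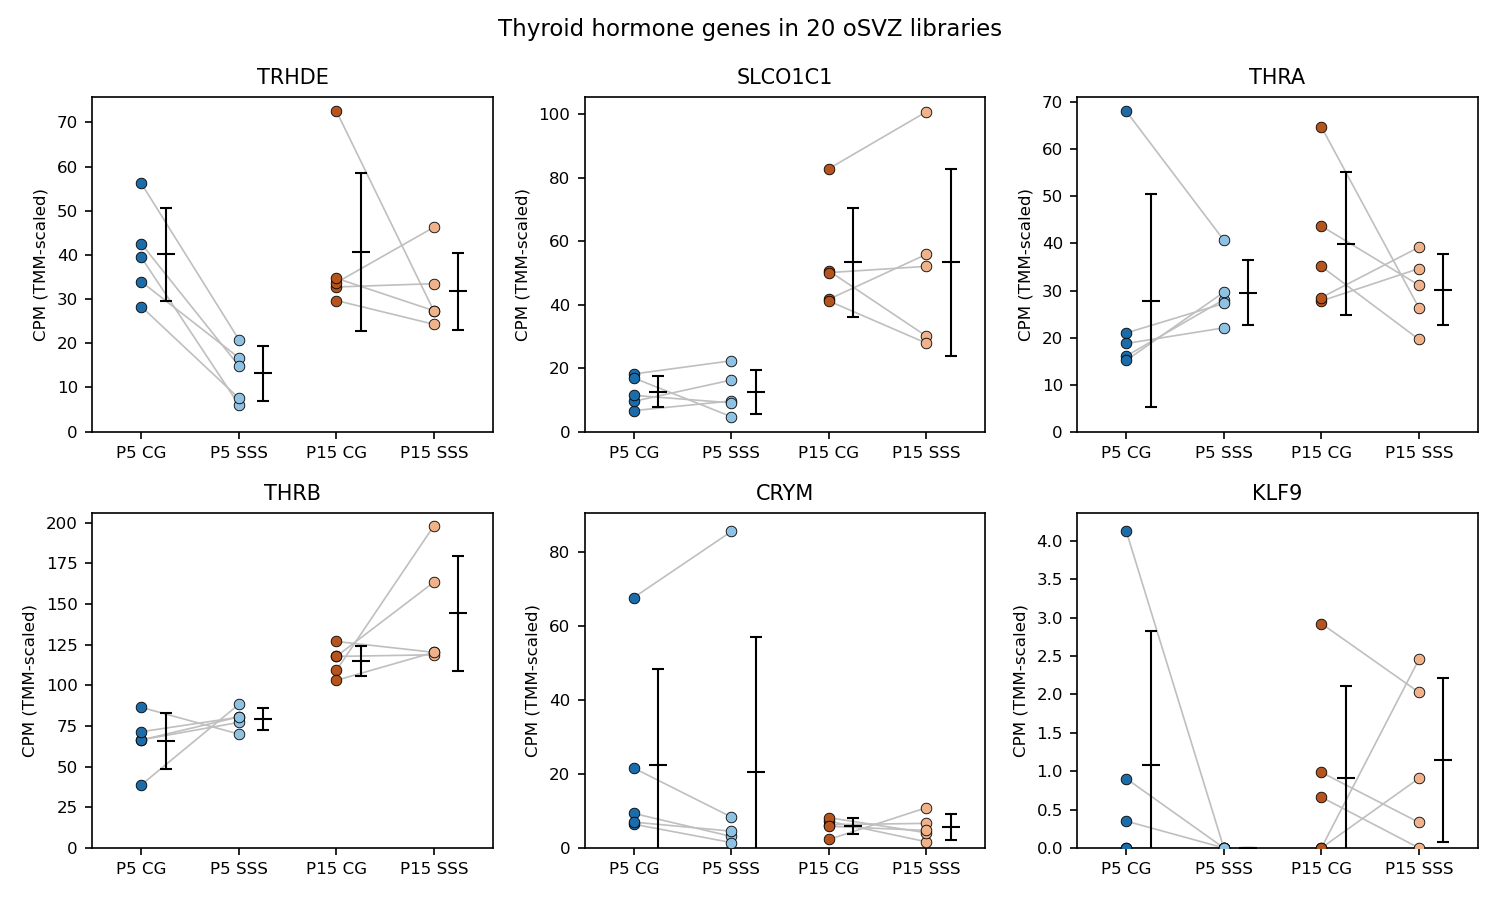
Levels of 6 thyroid hormone genes in CPM (vertical axes, scaled by TMM) in each of the 20 libraries, by age and region (horizontal axes). Points are libraries, grey lines join the CG and SSS libraries of 1 animal, and black bars give the mean and SD of 5 libraries, drawn only above 0. *SLCO1C1* and *THRB* were higher in every P15 library than in any P5 library of the same region, *TRHDE* was lowest in the P5 SSS, and single animals stood far above the rest for *CRYM* and *THRA*.

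*TRHDE* encodes the TRH-degrading ectoenzyme, a membrane peptidase that cleaves TRH outside the cell. In the P5 CG it stood at 39.5, 28.3, 34.0, 42.6 and 56.2 CPM in animals 1 to 5. In the P5 SSS of the same animals it stood at 6.12, 7.59, 16.7, 14.9 and 20.9 CPM. Every P5 CG library was thus above every P5 SSS library, by 6.45, 3.73, 2.03, 2.86 and 2.695 times within animals 1 to 5. The fitted difference was 3.19-fold (log2 fold change 1.67, SE 0.33). This is the difference for which the gene was chosen, and it carries no test here.

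At P15 the *TRHDE* levels of the CG were 32.8, 72.5, 29.7, 33.7 and 34.7 CPM. Those of the P15 SSS were 33.5, 27.3, 24.3, 46.3 and 27.4 CPM. The regions overlapped, and the CG was higher in 3 of 5 animals. The P15 region difference, in libraries that took no part in the choice, was 0.31 on the log2 scale (SE 0.32, 95% interval -0.32 to 0.93) and did not pass edgeR's quasi-likelihood test (FDR = 0.9997). By group means the order was P5 SSS (13.2 ± 6.24 CPM, SD, n = 5), P15 SSS (31.7 ± 8.79), P5 CG (40.1 ± 10.5) and P15 CG (40.7 ± 17.9), of which the last 3 lay within 1 SD of their neighbours.

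From P5 to P15 the fitted log2 fold change of *TRHDE* in the CG was 0.02 (SE 0.34, 95% interval -0.64 to 0.68), and the ages overlapped. In the SSS each P15 library was above each P5 library, with a fitted fold of 2.38 (log2 fold change 1.25, SE 0.35). Both age comparisons hold P5 libraries whose levels chose the gene, so that they are a description, as is the change of the region difference between the ages (-1.37 on the log2 scale, SE 0.46). Beside these values, summed radial glia markers also separated the regions at P5, at 9267 to 11,485 CPM in the CG against 6847 to 8402 CPM in the SSS. Most of this gap was *FABP7*, 1 of these markers, with means of 6105 CPM in the P5 CG and 4025 in the P5 SSS. Without *FABP7* the mean sums of CG and SSS were 4219 and 3758 CPM at P5, and 6763 and 6543 CPM at P15. Per 100 CPM of all 9 markers, *FABP7* among them, *TRHDE* had a median of 0.344 CPM (0.256 to 0.578) in the P5 CG and 0.205 (0.0728 to 0.259) in the P5 SSS. At P15 it had 0.338 (0.329 to 0.941) in the CG and 0.361 (0.289 to 0.499) in the SSS. The part of cell composition in these differences was not tested.

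The peptide that TRHDE degrades and its receptor were near the limit of these libraries. *TRH*, which encodes the precursor of the peptide, had 0 reads in both P5 groups, 1 in the P15 CG and 18 in the P15 SSS, in 2 of its 5 libraries. *TRHR*, the TRH receptor, had 3, 12, 9 and 0 reads in the P5 CG, P5 SSS, P15 CG and P15 SSS. Neither had enough reads to test, and both were named after their values were seen.

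*SLCO1C1* encodes OATP1C1, a transporter with high affinity for T4 that in rodents is found in brain capillary endothelium and in astrocytes. It rose about 4-fold between the ages in both regions, the largest rise among the 5 tested members. At P5 its levels were 18.2, 6.63, 9.54, 16.9 and 11.4 CPM in the CG of animals 1 to 5. In the P5 SSS they were 22.3, 9.66, 16.3, 4.72 and 9.07 CPM. These ranges overlapped almost fully.

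In the P15 CG *SLCO1C1* reached 50.6, 41.7, 41.1, 82.8 and 50.1 CPM. In the P15 SSS it reached 30.0, 55.8, 27.9, 100.7 and 52.0 CPM. Every P15 library was above every P5 library of its region, and the highest value of both P15 groups came from animal 4, whose SSS library is the one that stood apart.

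The group means of *SLCO1C1* were 12.5 ± 4.90 (P5 CG), 12.4 ± 6.90 (P5 SSS), 53.3 ± 17.1 (P15 CG) and 53.3 ± 29.3 CPM (P15 SSS; SD, n = 5), so that the regions did not differ beyond their spread at either age. At P15 the CG level was 4.24-fold that of P5, or 2.08 on the log2 scale (SE 0.40, FDR = 4.4e-04, edgeR). In the SSS it was 4.26-fold higher (log2 fold change 2.09, SE 0.40, FDR = 4.1e-04). It passed under each of 21 alternative settings in each region, at a log2 fold change of 1.88 to 2.25 in the CG and 1.74 to 2.42 in the SSS, the last range starting at the value without the P15 SSS library of animal 4. The CG was higher than the SSS in 2 of 5 animals at both ages, with a fitted difference of 0.11 at P15 (95% interval -0.53 to 0.75, FDR = 0.9997) and 0.06 at P5 (95% interval -0.63 to 0.76).

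Markers of the cells that hold this transporter in rodents rose with it. Of 9 astrocyte markers 8 passed the test upward in both regions (beside 7.39% of all tested genes in the CG and 8.19% in the SSS). Their summed level was 1168 to 1597 CPM in the P5 CG, 808.4 to 1413 in the P5 SSS, 4765 to 8490 in the P15 CG and 5102 to 7858 in the P15 SSS. *SPARCL1*, a matricellular protein of astrocytes that vessels and neurons also make, supplied most of these sums. Without it, *SLCO1C1* per 100 CPM of the other 8 markers had a median of 5.11 (2.52 to 10.1) in the P5 CG and 7.59 (4.68 to 12.4) in the P15 CG. In the SSS this ratio was 6.74 (6.42 to 13.8) at P5 and 8.43 (4.26 to 13.1) at P15, and the ages overlapped in both regions.

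Of 10 endothelial markers 4 passed the test upward in both regions (beside 7.39% of all tested genes in the CG and 8.19% in the SSS). Their sum was 225.3 to 472.8 CPM in the P5 CG, 204.4 to 503.5 in the P5 SSS, 613.4 to 644.7 in the P15 CG and 527.9 to 676.7 in the P15 SSS. Per 100 CPM of these markers *SLCO1C1* had a median of 3.21 (2.02 to 8.06) in the P5 CG against 7.86 (6.47 to 13.2) in the P15 CG. In the SSS it had 3.10 (1.40 to 10.9) against 9.08 (4.12 to 16.6). No endothelial marker was at 0 in any group, but *CLDN5*, a tight junction protein that defines this endothelium, had group means of 0.9 to 3.6 CPM. The part of either cell class in the rise of *SLCO1C1* was not tested.

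**Figure D2:**
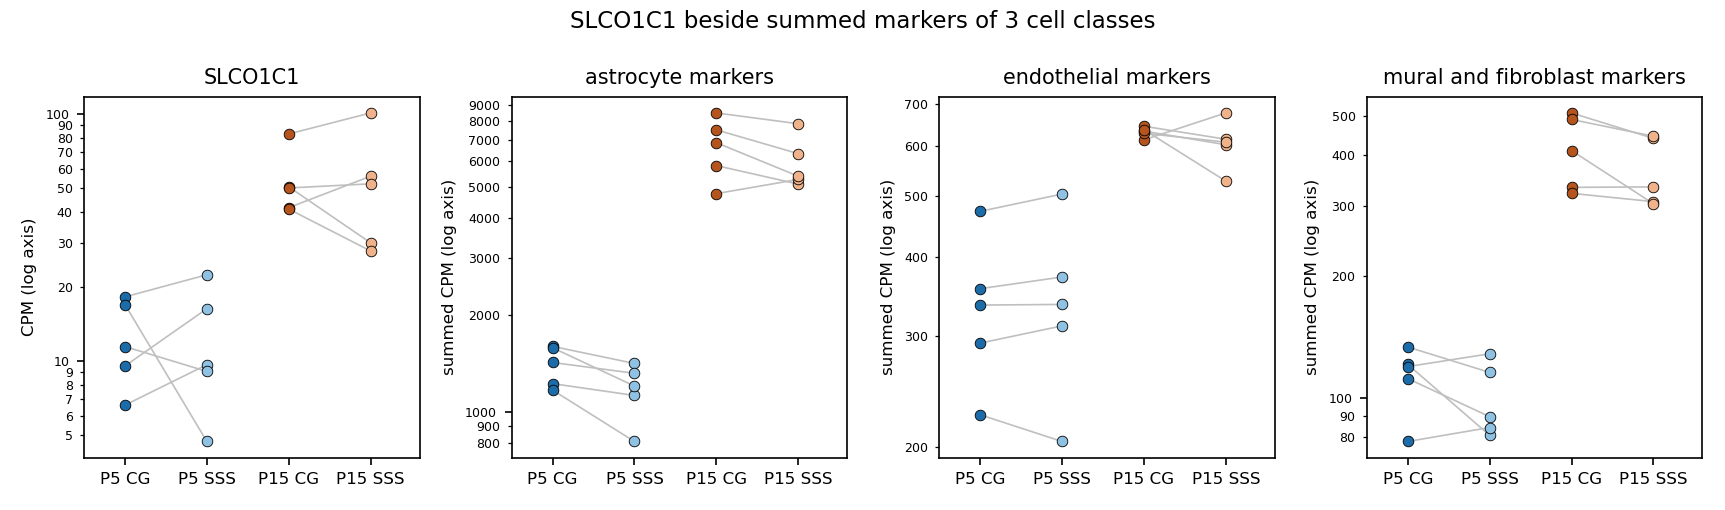
*SLCO1C1* in CPM beside the summed CPM of astrocyte, endothelial, and mural and fibroblast markers (vertical axes, logarithmic) in each library of the 4 groups (horizontal axes). Grey lines join the 2 libraries of an animal. All 4 panels show P15 libraries above P5 libraries. Of the full sums the endothelial one had the smallest step, 1.88-fold in the CG and 1.75-fold in the SSS. This order rests on a mural and fibroblast sum that includes *OGN*, which supplied most of its rise. Without *OGN* the mean mural and fibroblast sums were 84.5 CPM at P5 and 142.4 at P15 in the CG. In the SSS they were 67.8 and 128.1 CPM.

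Of the nuclear receptors, *THRB* rose between the ages in both regions and *THRA* passed the test in neither. *THRB* encodes the receptor TRβ. It stood at 66.4, 86.5, 66.5, 38.8 and 71.5 CPM in the P5 CG of animals 1 to 5, and at 80.6, 70.0, 77.2, 88.3 and 80.4 CPM in the P5 SSS. In the P15 CG it stood at 117.8, 127.0, 117.8, 109.2 and 103.1 CPM. In the P15 SSS it stood at 163.5, 120.3, 118.8, 198.2 and 120.3 CPM. P15 was above P5 in both regions with no overlap, and the 2 highest libraries were the P15 SSS of animals 4 and 1.

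The order of the group means of *THRB* was P5 CG (65.9 ± 17.3 CPM), P5 SSS (79.3 ± 6.60), P15 CG (115 ± 9.16) and P15 SSS (144.2 ± 35.6), and only the step from P5 SSS to P15 CG had no overlap of libraries. By edgeR the CG rise was 1.75-fold (0.80 on the log2 scale, SE 0.21, FDR = 0.0078) and the SSS rise 1.82-fold (0.86, SE 0.21, FDR = 0.0039). It passed under each of 21 alternatives, at a log2 fold change of 0.66 to 0.94 in the CG and 0.73 to 0.94 in the SSS. The CG was below the SSS in 4 of 5 animals at each age, by 0.30 on the log2 scale at P5 (95% interval -0.69 to 0.08) and at P15 (-0.68 to 0.08), a difference that did not pass at P15 (FDR = 0.9997).

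Set against cell class markers, the median of *THRB* was lower at P15 per astrocyte marker and higher per radial glia marker. The second holds for a sum that includes *FABP7*, whose mean fell from 6105 to 2621 CPM in the CG and from 4025 to 2046 in the SSS. Without *FABP7* the mean radial glia sum rose with age, from 4219 to 6763 CPM in the CG and from 3758 to 6543 in the SSS. The mean of *THRB* rose beside it, from 65.9 to 115 and from 79.3 to 144.2 CPM. The higher ratio below is thus not shown for radial glia markers without *FABP7*. Per 100 CPM of astrocyte markers it had a median of 5.02 in the P5 CG, 6.42 in the P5 SSS, 1.57 in the P15 CG and 2.23 in the P15 SSS. Per 100 CPM of radial glia markers it had 0.660 (0.418 to 0.782) in the P5 CG against 1.18 (0.976 to 1.65) in the P15 CG. In the SSS it had 0.959 (0.941 to 1.29) against 1.71 (1.27 to 2.14). The summed interneuron markers were 1.38-fold higher at P15 in the CG and 1.91-fold in the SSS. Of the 8 tested, 2 passed upward and 3 downward in each region (beside 13.1% and 14.6% of all tested genes called). Without *SST* the mean sum was 575.1 CPM at P5 and 598.7 at P15 in the CG, and 576.8 at both ages in the SSS. Per 100 CPM of the full sum, *THRB* had 8.87 at P5 and 11.8 at P15 in the CG, and 10.6 and 10.3 in the SSS. The part of cell composition in the rise of *THRB* was not tested.

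*THRA* encodes TRα, which in rodent brain is the more abundant receptor. Its levels were 16.1, 68.1, 15.2, 20.98 and 18.7 CPM in the P5 CG of animals 1 to 5. In the P5 SSS they were 28.1, 40.7, 29.6, 27.3 and 22.1 CPM. Animal 2 was the highest of both P5 groups.

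At P15 *THRA* stood at 27.8, 35.1, 43.7, 64.8 and 28.5 CPM in the CG. In the P15 SSS it stood at 34.7, 19.6, 31.1, 26.3 and 39.2 CPM. The 4 groups overlapped, with means of 27.8 ± 22.6 (P5 CG), 29.6 ± 6.85 (P5 SSS), 30.2 ± 7.57 (P15 SSS) and 39.98 ± 15.3 CPM (P15 CG), none of which differed from its neighbour beyond the spread.

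Between the ages the log2 fold change of *THRA* was 0.52 in the CG (SE 0.37, 95% interval -0.20 to 1.24, FDR = 0.41, edgeR) and 0.03 in the SSS (SE 0.37, 95% interval -0.69 to 0.76, FDR = 0.97). The CG value rests on P5 animal 2: without it the log2 fold change was 1.19 and passed (FDR = 0.018), and the alternatives spanned an FDR of 0.018 to 0.69. The region difference was 0.37 at P15 (95% interval -0.28 to 1.01, FDR = 0.9997) and -0.32 at P5 (95% interval -0.97 to 0.32). In another ferret assembly *THRA* overlaps *NR1D1* and *MED24*, which had 233 and 2198 reads over the 20 libraries here. The paper's supplement lists ambiguous reads as unassigned, and the counting is not stated to use strand. The part of this overlap in the *THRA* counts was not tested. Receptor isoforms cannot be told apart in counts per gene.

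*CRYM* encodes μ-crystallin, a cytosolic protein that binds T3. Its P5 mean rested on 1 animal. Animal 1 had 67.8 CPM in the P5 CG, where animals 2 to 5 had 9.34, 21.6, 6.41 and 6.99 CPM. It had 85.6 CPM in the P5 SSS, where animals 2 to 5 had 3.10, 8.37, 1.45 and 4.54 CPM. Both libraries of that animal stood several-fold above the rest of their groups. The paper's supplement gives both a lower RNA integrity than most other P5 libraries, and the part of RNA quality was not tested.

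The P15 levels of *CRYM* were 6.29, 7.22, 8.18, 2.30 and 5.85 CPM in the CG. In the P15 SSS they were 6.64, 1.66, 4.10, 10.9 and 4.73 CPM. In the CG 3 of 5 lay below every P5 library, and in the SSS 1 lay above those of P5 animals 2 to 5 and the other 4 among them. The means were 22.4 ± 26.1 (P5 CG), 20.6 ± 36.4 (P5 SSS), 5.97 ± 2.24 (P15 CG) and 5.60 ± 3.45 CPM (P15 SSS), and no neighbours in this order differed beyond their spread.

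The log2 fold change of *CRYM* from P5 to P15 was -1.89 in the CG (SE 0.80, FDR = 0.12, edgeR) and -1.88 in the SSS (SE 0.81, FDR = 0.12), and neither passed. Without P5 animal 1 it was -0.88 in the CG (FDR = 0.46) and turned to 0.35 in the SSS (FDR = 0.80). With no filter on low counts it passed in both regions (FDR = 0.016 in each), and in the CG also when only the 2 groups compared were fitted (FDR = 0.032). Its FDR spanned 0.016 to 0.46 among the alternatives in the CG and 0.016 to 0.80 in the SSS. The region difference was 0.24 at P15 (95% interval -0.88 to 1.37, FDR = 0.9997) and 1.00 at P5 (95% interval -0.08 to 2.08), with the CG higher in 4 of 5 P5 animals.

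*KLF9* encodes a zinc-finger transcription factor that is a direct target of T3 and of glucocorticoids in rodent brain. It had 17 reads in the P5 CG, 13 of them in animal 5. It had 0 reads in the 5 P5 SSS libraries, 13 in the P15 CG and 18 in the P15 SSS. In CPM the P15 libraries ran from 0 to 2.92 in the CG (mean 0.914) and from 0 to 2.46 in the SSS (mean 1.15), and the P5 CG from 0 to 4.13 (mean 1.08). Most of its libraries thus held fewer than 4 reads. If reads were independent, a count of 0 would allow up to 3 reads over the P5 SSS group, or 0.188 CPM. The pooled P15 SSS level of 1.18 CPM was 6.25-fold that limit, with the counting error of the 18 P15 reads left out. Reads amplified without molecular identifiers are not independent molecules, so this ratio does not cover the full counting error of either group. Of the 18 P15 reads 9 came from animal 3, without which the ratio was 4.105-fold.

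Set side by side, the age comparisons held more called members than the region comparisons, and the background differed in the same way. At an FDR under 0.05 edgeR called 1661 of 12,669 genes (13.1%) between the ages in the CG and 1856 (14.6%) in the SSS, with 936 (7.39%) and 1037 (8.19%) of all genes higher at P15. Of the 4 tested members other than *TRHDE*, whose P5 levels chose it, *SLCO1C1* and *THRB* passed in each region, both higher at P15. The median log2 fold change of the 4 was 0.66 in the CG and 0.45 in the SSS, beside -0.01 in both regions over all tested genes. At P15 the regions differed in 2 genes (0.0158%) and in 0 of the 5 members, none of which had an unadjusted p under 0.05. No member was called between regions at P15 under any of 19 alternatives, DESeq2 and limma-voom among them.

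At P5 the regions differed in 5 genes (0.0395%) and in 0 members. Nothing is read from that count, since it is the comparison that chose *TRHDE*. The region difference changed between the ages in 0 genes (0.00%), with 488 at an unadjusted p under 0.05 by edgeR, and DESeq2 called 1. No member was among the called genes there in 18 alternatives, and none of the 4 other than *TRHDE* had an unadjusted p under 0.05. The 2 age comparisons use the CG and SSS of the same animals and are not independent of each other.

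**Figure D3:**
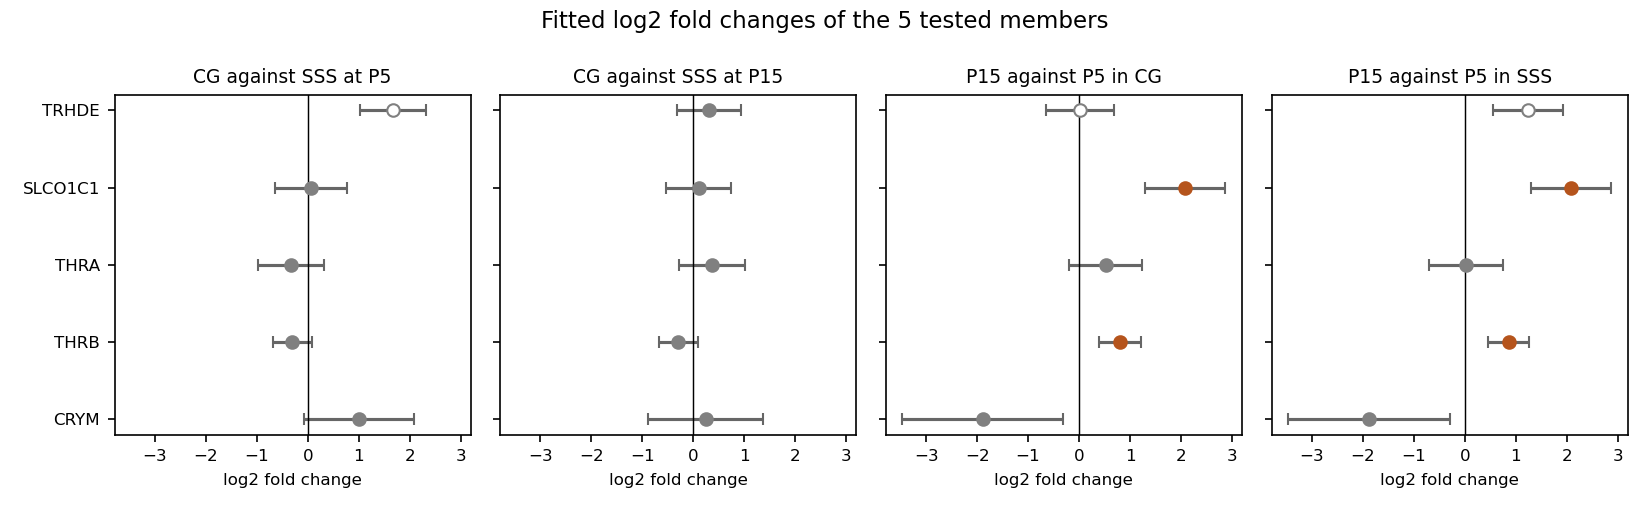
Fitted log2 fold changes (horizontal axes) of the 5 tested genes (vertical axis) in 4 comparisons, with bars for the 95% intervals and genes at an FDR under 0.05 in orange. Open circles mark values of *TRHDE* that rest on the P5 libraries that chose it and are drawn with no test. The age comparisons show *SLCO1C1* at 2.08 and 2.09 and *THRB* at 0.80 and 0.86.

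Members were compared with each other across the 20 libraries by the Pearson correlation of log2 CPM, as a description, since libraries share animals, ages and depth. *SLCO1C1* and *THRB*, which both rose with age, had r = 0.66 over all libraries and -0.15 once the 4 group means were taken out. The other pairs lay between -0.31 and 0.36 over all libraries. *SLCO1C1* and *CRYM* had the largest value within groups, r = 0.49, against -0.07 over all libraries.

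Among 7701 other genes with a symbol and a mean of at least 10 CPM, the genes most like *SLCO1C1* over the 20 libraries were *MED12L* (r = 0.92), *FSTL1* (0.90) and *SYNE1* (0.89). *FSTL1*, a secreted glycoprotein, also stayed among its nearest 3 within groups (0.84), with *SPAG5* and *CEP55*, proteins of the spindle and of cell division. Those most like *THRB* were *KCNMA1* (0.93), a calcium-activated potassium channel, *GABBR2* (0.92), a subunit of the GABA-B receptor, and *ARHGEF26* (0.90). Within groups they were *DCAF7*, *PLXNB2* and *EFHD2* (0.75 to 0.78).

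*TRHDE* was most like *FHIP2A* (0.86), *LYN* (0.79) and *PTGR1* (0.79) over all libraries, and like *CDK20*, *NAV3* and *BICC1* within groups (0.73 to 0.79). *THRA* had lower values, with *NMRK1* at 0.72 and *RFXANK* at 0.71, and within groups *GUK1* (0.81), *MEA1* and *RMND5B*. *CRYM* was most like *KIF11* (0.83), a mitotic kinesin, *SGO1* (0.82) and *ESCO2* (0.80), which act in the cohesion of sister chromatids. These values rest in part on P5 animal 1: in the 18 libraries of the other animals they were 0.54, 0.69 and 0.58.

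The pathway around these genes was followed in 6 further lists of 68 genes, of which 59 had an identifier and 41 were tested. Between the ages 9 were higher at P15 and 1 lower in the CG (beside 13.1% of all tested genes called), with a median log2 fold change of 0.41. In the SSS 8 were higher and 1 lower (beside 14.6%), with a median of 0.20, beside a median of -0.01 over all tested genes in either region. Between the regions edgeR called 0 of 41 at either age, with 5 at an unadjusted p under 0.05 at P5 and 3 at P15 (beside 8.03% and 3.72% of all tested genes), and no alternative called any.

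Of the 8 other listed transporters 6 were tested. *SLC3A2*, the heavy chain of amino acid transporters that also carry thyroid hormone, did not pass, with a log2 fold change from P5 to P15 of 0.96 in the SSS (FDR = 0.12, edgeR) and 0.46 in the CG (FDR = 0.53).

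The list of deiodination and carrier proteins had 10 genes, 4 of them tested, and none passed. *USP33*, a deubiquitinase that acts on the DIO2 protein, had -0.59 in the CG (FDR = 0.11) and -0.41 in the SSS (FDR = 0.27). *MARCHF6*, a ubiquitin ligase that also acts on it, had -0.51 (FDR = 0.12) and -0.38 (FDR = 0.26). *TTR*, which encodes the carrier transthyretin and is abundant in choroid plexus, was too low to test, with 16, 86, 3 and 0 reads in the P5 CG, P5 SSS, P15 CG and P15 SSS, and was named after its values were seen.

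Of 15 listed receptor partners and cofactors 11 were tested. Their median log2 fold change was 0.14 in the CG and -0.003 in the SSS. *RXRB*, a retinoid X receptor, had 30.0 CPM in the P15 CG and 61.2 in the P5 CG, a log2 fold change of -1.03 (SE 0.34, FDR = 0.043, edgeR). This call was lost in 9 of 21 alternatives, 7 of them leaving out 1 animal (numbers 1, 2 and 4 of P5, numbers 1, 2, 3 and 5 of P15, FDR up to 0.18), and the SSS value was -0.86 (FDR = 0.096). *CREBBP*, a coactivator and acetyltransferase, was lower at P15 in the SSS (216.3 against 316.7 CPM, -0.55, SE 0.18, FDR = 0.036). It lost the call in 10 of 21 alternatives, among them those leaving out numbers 2, 3 and 4 of P5, numbers 3, 4 and 5 of P15, and the P15 SSS library of animal 4 alone (FDR 0.022 to 0.13 among the 21), and had -0.25 in the CG (FDR = 0.42).

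Of 10 genes of the TRH and thyrotropin axis 3 were tested. *CPE*, a carboxypeptidase that trims many prohormones, pro-TRH among them, was higher at P15 in both regions with no overlap (in the CG a mean of 2475 CPM with 1414 at P5, a log2 difference of 0.81, SE 0.14, FDR = 1.8e-04, edgeR). In the SSS it stood at 2300 against 1298 CPM (0.82, SE 0.14, FDR = 1.3e-04). *PCSK1*, a prohormone convertase, had 2.35 in the SSS (SE 0.99, FDR = 0.11) and 0.41 in the CG (FDR = 0.85). Of its 239 P15 SSS reads 163 were in the library of animal 4 that stood apart (73.9 CPM, with 2.704 to 8.95 in the others), and without it the P15 SSS mean fell from 19.3 to 5.63 CPM, beside 3.76 at P5.

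The list of genes known to respond to T3 in rodent brain had 15 members, 9 of them tested. At P15 4 were higher in the CG (beside 7.39% of all tested genes), 3 in the SSS (beside 8.19%) and none was lower. Its median log2 fold change was 1.68 in the CG and 0.67 in the SSS. The genes called in both regions included *MBP* and *MAG*, proteins of myelin that stand in the oligodendrocyte marker list as well, whose summed level rose by the values given above. *MBP* had a mean of 650.1 CPM in the P15 CG and 22.4 in the P5 CG (a log2 difference of 4.86, SE 0.63, FDR = 1.5e-06, edgeR) and of 591.7 and 29.9 CPM in the SSS (4.29, SE 0.61, FDR = 7.5e-06). P15 animal 3 had 1931 CPM in the CG, where the others had 108.9 to 635.5, and 1567 CPM in the SSS (162.6 to 561.7 in the others). Without that animal the log2 difference of *MBP* dropped to 3.89 (CG) and 3.55 (SSS), and each passed under all of 21 alternatives. *MAG* had 0 reads at P5 in either region against 459 in the P15 CG and 182 in the P15 SSS. These levels were 159-fold and 63.2-fold that of 3 reads over the P5 group, with reads taken as independent and the counting error of the P15 reads left out. Animal 3 held 274 of the CG reads and 115 of the SSS reads, and without it these ratios were 88.2-fold and 30.6-fold.

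*NRGN*, a calmodulin-binding protein of forebrain neurons, passed the test in the CG. It had 0 reads in the P5 CG and 50 in the P15 CG (FDR = 0.021, edgeR). The P15 CG level was 17.3-fold that of 3 reads over the P5 CG, with reads taken as independent and the counting error of the P15 reads left out. In the P5 and P15 SSS *NRGN* had 15 and 33 reads (FDR = 0.57, edgeR). All 15 of the former were in animal 3 and 29 of the latter in animal 1. Without P5 animal 3 the SSS log2 fold change was 5.62 (FDR = 0.054), against a P5 group with 0 reads, so that the SSS value rests on that animal. The other 5 tested genes of the list (*HR*, *RELN*, *SEMA7A*, *CNTN2* and *ME1*, named here to complete it) did not pass in either region. The part of oligodendrocytes in the changes of this list was not tested.

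Genes of the glucocorticoid receptors and their responses were followed because *KLF9* answers to both hormones. Of 10 listed genes 8 were tested, 3 were higher at P15 in both regions and none was lower. Over all tested genes 7.39% were higher in the CG and 8.19% in the SSS. *NR3C1*, the glucocorticoid receptor, rose from 36.6 to 116.1 CPM in the CG (log2 fold change 1.66, SE 0.25, FDR = 1.7e-05, edgeR) and from 46.9 to 114.3 CPM in the SSS (1.29, SE 0.25, FDR = 4.5e-04), with no overlap between the ages. *SGK1*, a kinase induced by glucocorticoids, rose by 1.497 (FDR = 9.8e-05) and 1.37 (FDR = 2.6e-04) on the log2 scale. *NR3C2*, the mineralocorticoid receptor, rose by 1.13 in the CG (FDR = 0.023) and by 1.71 in the SSS (FDR = 7.3e-04), and leaving out P5 animal 3, P5 animal 4 or P15 animal 4 ended its CG call (FDR up to 0.068). The other 5 tested genes of the list did not pass in either region.

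**Figure D4:**
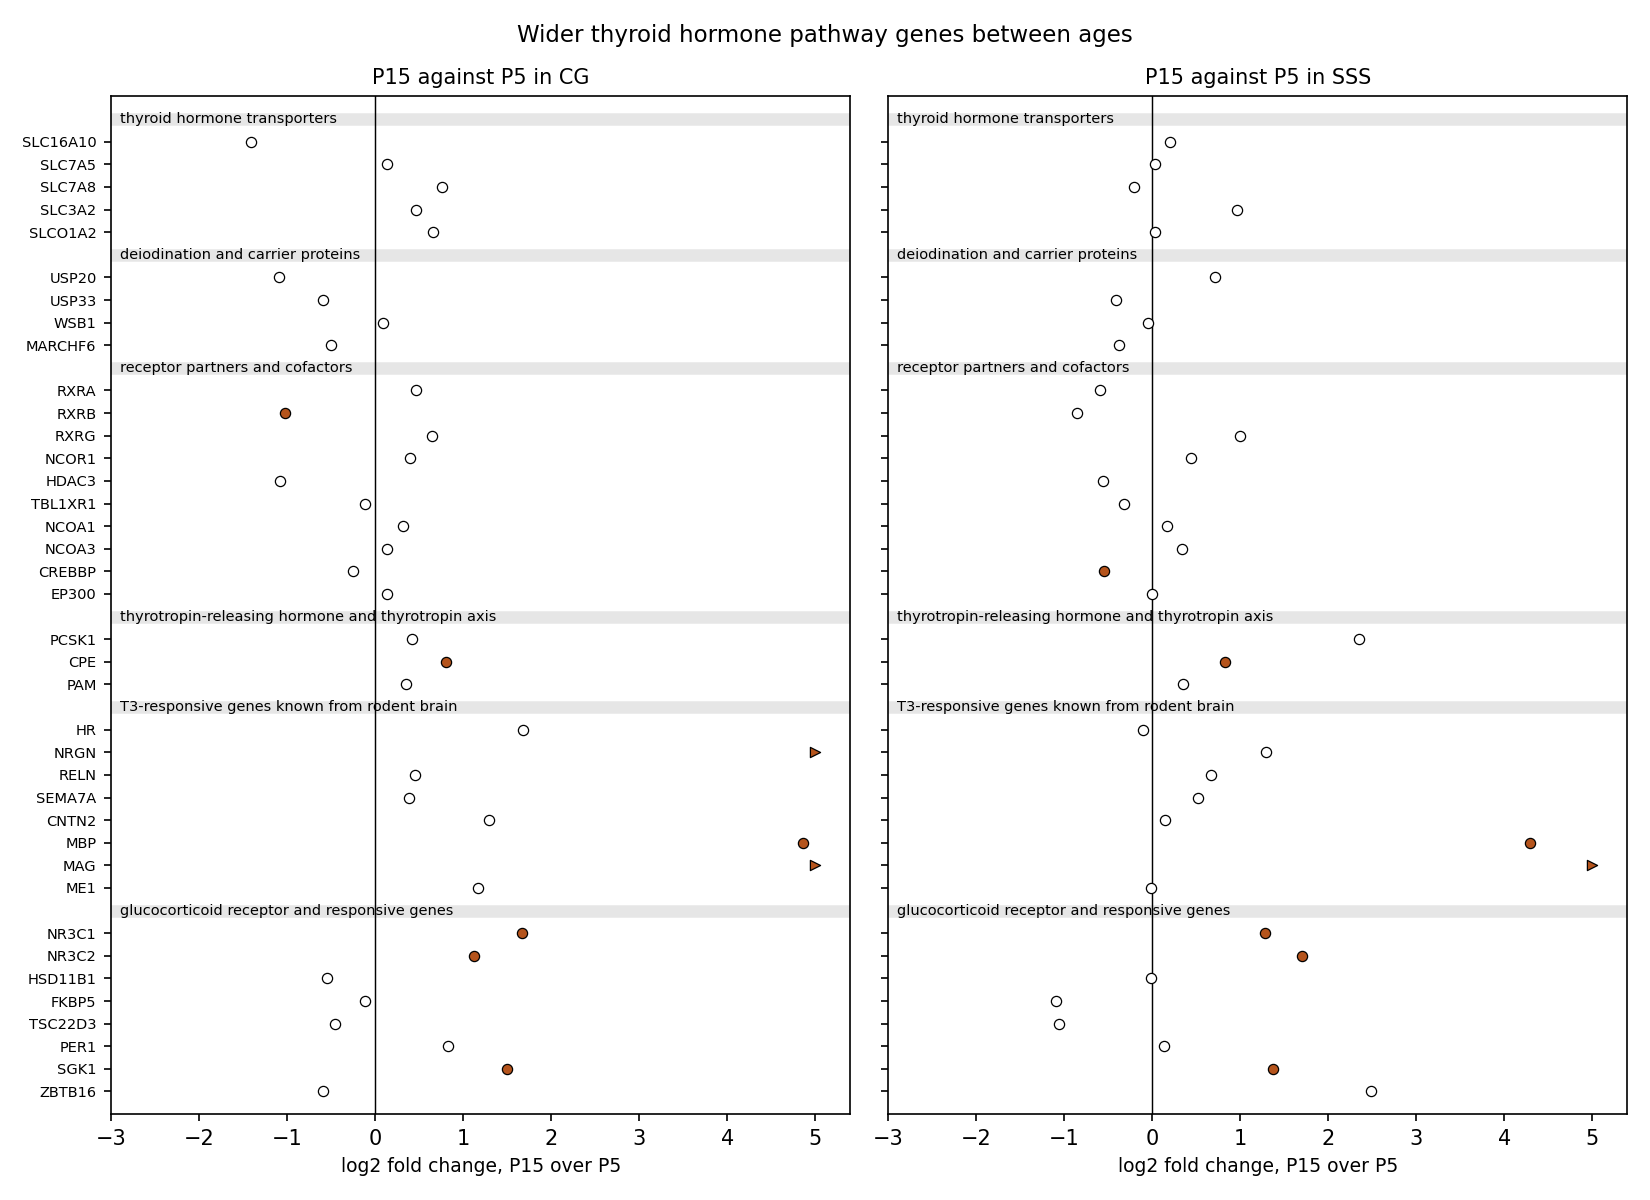
Log2 fold change from P5 to P15 (horizontal axes) of 38 tested genes of 6 further lists (vertical axis, grouped under grey headings) in the CG and in the SSS. Filled symbols mark genes at an FDR under 0.05 and triangles values above 5, fitted against groups with 0 reads. The T3-responsive and glucocorticoid lists hold 6 of the 8 filled symbols in the CG and 5 of the 7 in the SSS.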

How the data were processed

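Laser-captured oSVZ of the CG and SSS was measured by RNA-seq in 10 ferrets, 5 at each age. The authors amplified the RNA by SPIA, cleaned the paired reads (Trimmomatic 0.38, quality by FastQC 0.11.9), mapped them to the genome MusPutFur1.0 (STAR 2.7.9a) and summed them over genes (featureCounts). Their own tests used edgeR 3.42.4 (R 4.3.1). The deposited values are raw counts, 1 column per library, with no normalisation.

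The symbols of the deposited table follow the sorted order of its identifiers, not their order in the table, and were paired with them by that rank. The 33 ribosomal protein genes named had a median of 703.5 CPM by this rule and 1.39 CPM line by line.

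The tools here were edgeR 4.0.16, DESeq2 1.42.0 and limma 3.58.1 (R 4.3.3), and for plots matplotlib 3.10.9, pandas 2.3.3 and numpy 2.4.6 (Python 3.11.15). Low genes were removed with filterByExpr (10 reads as its minimum count, 15 as its minimum total), libraries were scaled by TMM, and edgeR's quasi-likelihood test of the older kind was fitted to all 20 libraries. Regions were compared with the animal as a block, ages with a design of the 4 groups. The FDR is Benjamini and Hochberg's over 12,669 genes (10,533 with a symbol), and genes under 0.05 are called. Fold changes used a prior count of 0.125 and log2 CPM one of 2. SE values are the log2 fold change over the root of F. CPM levels are not scaled by gene length and were not compared between genes.

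The pairing of CG and SSS comes from the animal given in the library names. Deviations from group means of paired libraries had correlations of 0.046 to 0.246 (median 0.141, 10 pairs). Libraries of different animals had -0.504 to 0.142 (median -0.0417, 180 pairs), so the ranges overlapped. Taking out group means itself lowers the correlation among libraries of a group, which are all of different animals. Equal numbers at the 2 ages do not mark the same animal.

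The members and lists were chosen with earlier results of these data known. Named genes are the members, the called genes and the 2 with the lowest p of each further list, and for each tested member the 3 genes of highest correlation over all libraries and within groups. Alternatives changed scaling, filter, tool, prior count, the samples fitted and the block, or left out animals or 1 library. The fit was tested on simulated data. Some genes that this rule names are not reported here.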

Additional observations from a re-analysis of the deposited data

Results flagged for a closer look

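Of 24 groups of 5 libraries, 1 for each of 6 genes in each of 4 groups, 6 held a library whose gap to its nearest neighbour exceeded 0.71 of the range of the group. Chance alone gives such a gap in about 1 in 20 groups. *TRHDE* had 72.5 CPM in the P15 CG of animal 2, where the other 4 libraries had 29.7 to 34.7. *SLCO1C1* had 82.8 CPM in the P15 CG of animal 4, where the others had 41.1 to 50.6, and the same animal was highest in the SSS. *THRA* had 68.1 CPM in the P5 CG of animal 2, against 15.2 to 20.98 in the others, and that animal was highest in the P5 SSS as well.

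*CRYM* had 67.8 CPM in the P5 CG of animal 1 (others 6.41 to 21.6) and 85.6 CPM in its SSS (others 1.45 to 8.37), the only pair of libraries of 1 animal that both stood apart. *KLF9* had 4.13 CPM in the P5 CG of animal 5, or 13 reads, against 0 to 0.904 CPM in the others.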

How the results depend on the processing

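The age results held best. Over 20 alternatives the genes called between the ages ran from 1116 to 2210 in the CG (1661 as reported) and from 1260 to 2342 in the SSS (1856), members other than *TRHDE* from 2 to 3 in each region (2), and wider pathway genes from 7 to 11 (10) and from 7 to 10 (9).

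Region counts depended on the setting. At P5, 5 genes were called as reported, 3 with library size in place of TMM, 69 with no filter, 27 with the newer quasi-likelihood of edgeR, 54 by limma-voom, 106 by DESeq2, 1 to 51 without 1 animal and 52 without the P15 SSS library of animal 4, the highest leave-out count being that without P15 animal 4. None of these alternatives called a member other than *TRHDE*, of which no test is given there. At P15, 2 genes were called as reported, 18 with no filter, 0 when fitting only the groups compared, 4 with the newer quasi-likelihood, 9 by limma-voom, 11 by DESeq2, 0 to 2 without 1 animal and 0 without the P15 SSS library of animal 4. The change of the region difference had 0 genes as reported, 5 with no filter, 1 with DESeq2 and 0 to 1 without 1 animal. The cause of these shifts was not tested.

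With no replicate block, that is without pairing by animal, 0 genes were called between regions at P5 and 0 at P15. A replicate block of equal numbers across the ages, which mark no shared animal, gave 1890 and 2008 genes. Library size in place of TMM shifted the median gene by 0.08 (CG) and 0.07 (SSS) on the log2 scale between the ages.

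At 2,488,477 to 4,277,326 reads per library, *KLF9*, *TRH* and *TRHR* were too shallow to test.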
